A study of Mus musculus with 18 samples.

Results

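The genes described are Il2 and 8 receptor chains of the common gamma chain family, Il2ra, Il2rb, Il2rg, Il4ra, Il7r, Il9r, Il15ra and Il21r, taken by symbol from a table of RNA-seq values. All 9 were found among the 12547 genes of that table, and none was lost to the filter on low values. In the mouse annotation Il2 lies on chromosome 3, Il2ra and Il15ra on 2, Il4ra and Il21r on 7, Il9r on 11, Il2rb and Il7r on 15 and Il2rg on X, and all are protein-coding. They were measured in 18 libraries of mouse CD4 T cells, with 3 libraries in each of 6 groups: Id3-KO and WT cells in library sets that the labels number 3, 5 and 6. Both genotypes began as naive CD4 T cells, were activated with microbeads carrying antibodies to CD3 and CD28, and were cultured in serum-containing IMDM to which IL2, IL12 and anti-IL4 were added. Every group therefore received IL2 protein and had IL4 blocked. Genotype was the only labelled difference within a set. The labels do not give the meaning of the set numbers, the age of the mice, the Id3 allele, or whether replicates came from separate mice or cultures. The p-values thus reflect only how far these libraries scatter, which may be technical. In the authors' deposited table the contrast of set 3 is named with 24 and those of sets 5 and 6 with 96, without a unit.

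IL2, IL4, IL7, IL9, IL15 and IL21 are cytokines whose receptors share the common gamma chain, the product of Il2rg. The chain pairs with a receptor chain of its own for each cytokine, and IL2 and IL15 also share the beta chain from Il2rb, so that Il2ra and Il15ra encode the alpha chains that set the pair of receptors apart. Binding activates the kinases JAK1 and JAK3, which phosphorylate STAT proteins, mainly STAT5 for IL2, IL7, IL9 and IL15, STAT6 for IL4 and STAT3 for IL21. In T cells IL2 is made in a burst after activation, and its signal raises Il2ra and Il2rb and lowers Il7r. Id3 is an inhibitor of E proteins, transcription factors that bind the E-box motif CANNTG.

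Values are the deposited log2 values, and every difference below is a log2 difference of group means, KO minus WT or the later-numbered set minus the earlier one. Because the sources used here do not say whether the deposited values were scaled to gene length, levels are compared between groups and not between genes. Each difference was tested with limma over all genes, and a gene was called at a Benjamini-Hochberg adjusted p under 0.05. The median difference of all genes, KO minus WT, was -0.07 in set 3, 0.39 in set 5 and 0.42 in set 6, so differences in sets 5 and 6 are also given relative to it, after each library was centred on its own median. Id3 read at most 5.63 in any KO library and at least 8.85 in any WT library, as the labels require. In bulk RNA, fewer cells that express a gene and less of its RNA per cell cannot be told apart.

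The promoters of 4 of the genes are printed from RefSeq on GRCm38.p6, as the 250 bases before the annotated start, 5′ to 3′ on the strand of the gene. For Il4ra, Il15ra and Il7r, the receptor genes that stood higher in KO cells of set 5 by the widest margins among those with high levels, capitals mark E-boxes (CANNTG). For Il2, the cytokine gene whose level parted the sets, capitals mark GGAAA or its complement TTTCC, the core to which NFAT binds.
Il4ra (chr7:125552021-125552270, plus strand): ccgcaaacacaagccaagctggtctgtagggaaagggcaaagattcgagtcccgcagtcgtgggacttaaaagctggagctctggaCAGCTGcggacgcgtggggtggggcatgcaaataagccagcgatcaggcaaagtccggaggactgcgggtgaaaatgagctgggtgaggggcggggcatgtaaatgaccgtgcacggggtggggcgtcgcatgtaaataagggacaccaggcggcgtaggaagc
Il15ra (chr2:11705043-11705292, plus strand): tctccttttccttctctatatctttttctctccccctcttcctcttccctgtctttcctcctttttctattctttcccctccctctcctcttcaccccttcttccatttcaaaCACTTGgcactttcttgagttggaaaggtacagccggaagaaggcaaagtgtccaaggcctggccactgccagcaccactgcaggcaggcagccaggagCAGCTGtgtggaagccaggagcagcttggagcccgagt
Il7r (chr15:9529877-9530126, minus strand): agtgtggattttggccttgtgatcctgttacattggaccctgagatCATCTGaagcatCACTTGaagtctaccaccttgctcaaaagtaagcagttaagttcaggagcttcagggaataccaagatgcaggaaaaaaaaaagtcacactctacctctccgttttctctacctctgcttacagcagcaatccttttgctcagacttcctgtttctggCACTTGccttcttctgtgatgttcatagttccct
Il2 (chr3:37125955-37126204, minus strand): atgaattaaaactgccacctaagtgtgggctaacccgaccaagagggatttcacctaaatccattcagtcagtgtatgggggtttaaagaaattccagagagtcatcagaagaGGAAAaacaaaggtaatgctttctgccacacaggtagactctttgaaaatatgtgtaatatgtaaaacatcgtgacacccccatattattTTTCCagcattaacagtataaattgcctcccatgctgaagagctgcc
Il4ra had 1 E-box, CAGCTG at 164 bases before the start, and Il15ra had 2, at 137 and 38 bases before it, the nearer one again CAGCTG. A second annotated start of Il15ra has a window of its own, not printed, with 3 E-boxes, 1 of them CAGGTG. Il7r had 3 E-boxes and also the STAT5 core TTCNNNGAA at 142 bases before the start. Il2 had no E-box and 2 GGAAA cores, at 137 and 47 bases before the start. The table of promoters held 9 windows for 8 of the genes, and motifs were searched on both strands. An E-box was present for 5 of the 8 genes, while 66.2% of 32851 promoters of the same length hold one. CAGCTG was present for 2 of the 8 (13% of promoters), TTCNNNGAA for 1 (7.02%) and GGAAA for 6 (55.6%). These matches describe the letters of the windows and say nothing of binding.

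Il2, the gene of the cytokine itself, was abundant only in set 3 and did not differ by test between KO and WT cells. In set 3 it read 9.61, 11.10 and 7.63 in the KO libraries, against 10.44, 10.43 and 9.71 in the WT libraries. In set 5 the KO libraries read 2.83, 1.003 and 1.09, against 3.69, 2.45 and 1.03 in the WT libraries. In set 6 they read 2.70, 2.77 and 2.70, against 3.14, 4.001 and 2.94. The KO libraries of set 3 held both the highest and the lowest Il2 of that set, and 2 KO libraries and 1 WT library of set 5 lay at the lowest value of their library. The mean stood lower in KO cells in every set, with differences of -0.74, -0.75 and -0.64 for sets 3, 5 and 6 (SE 0.75 each) and adjusted p of 0.549, 0.414 and 0.485. The 95% intervals of these differences were -2.38 to 0.90, -2.39 to 0.89 and -2.28 to 1.001, wide enough to hold a large change in either direction. Only in set 6 did the KO and WT values not overlap, and there they lay near the lowest value of their library. KO libraries stood 1.70, 1.69 and 1.69 above it and WT libraries 2.11, 2.99 and 1.92. In set 3 the difference was 0.16 without KO replicate 3, the library with the least Il2.

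Between sets, Il2 was lower in set 5 than in set 3 by -7.81 in KO cells (SE 0.75; adjusted p = 9.57e-08) and by -7.80 in WT cells (SE 0.75; adjusted p = 1.5e-07). Since Il2 in set 5 was at or near the lowest values, the size of this difference depends on the constant the authors added before taking logs. The sources used here do not give it. With 1 added on the linear scale it was -7.37 in KO cells and -7.50 in WT cells. The KO effect on Il2 did not differ detectably between sets 5 and 3 (difference of effects -0.0046, 95% interval -2.32 to 2.31, adjusted p = 0.997).

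Of the other cytokines that use the common gamma chain, Il4, Il9 and Il21 rose in KO cells in all 3 sets, Il15 was not called in any, and Il7 was not analysed here. The shares of all genes called higher were 6.92%, 50.1% and 53.9% in sets 3, 5 and 6, and 24.9% and 18.8% in sets 5 and 6 after centring. In sets 5 and 6, Il9 lost its call relative to the median of all genes (adjusted p = 0.0864 and 0.104), while Il4 and Il21 kept theirs. The count of 3 became 2 in set 5 on leaving out any library but KO replicate 2, and in set 6 on leaving out KO replicate 1, WT replicate 2 or WT replicate 3. Il21, a cytokine of follicular helper and other activated CD4 T cells, read 12.61, 11.11 and 11.47 in the KO libraries of set 5, against 5.39, 6.15 and 5.68 in the WT libraries, a difference of 5.99 (SE 0.44; adjusted p = 3.5e-08). It differed by 2.05 in set 3 (adjusted p = 0.00699) and by 3.004 in set 6 (adjusted p = 3.06e-05), and KO and WT values did not overlap in any set. Il9 read 13.79, 12.44 and 12.39 in the KO libraries of set 3, against 6.70, 8.86 and 6.49 in the WT libraries, and was called there on both scales. In set 5 it read 6.03, 1.003 and 4.30 in the KO libraries, while all 3 WT libraries lay at their lowest value. The 18 libraries had Il15 at their lowest value in 8 cases, and its KO and WT means were 4.47 ± 0.22 and 1.97 ± 0.81 in set 3 (SD, n = 3 each; adjusted p = 0.0647).

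**Figure D1:**
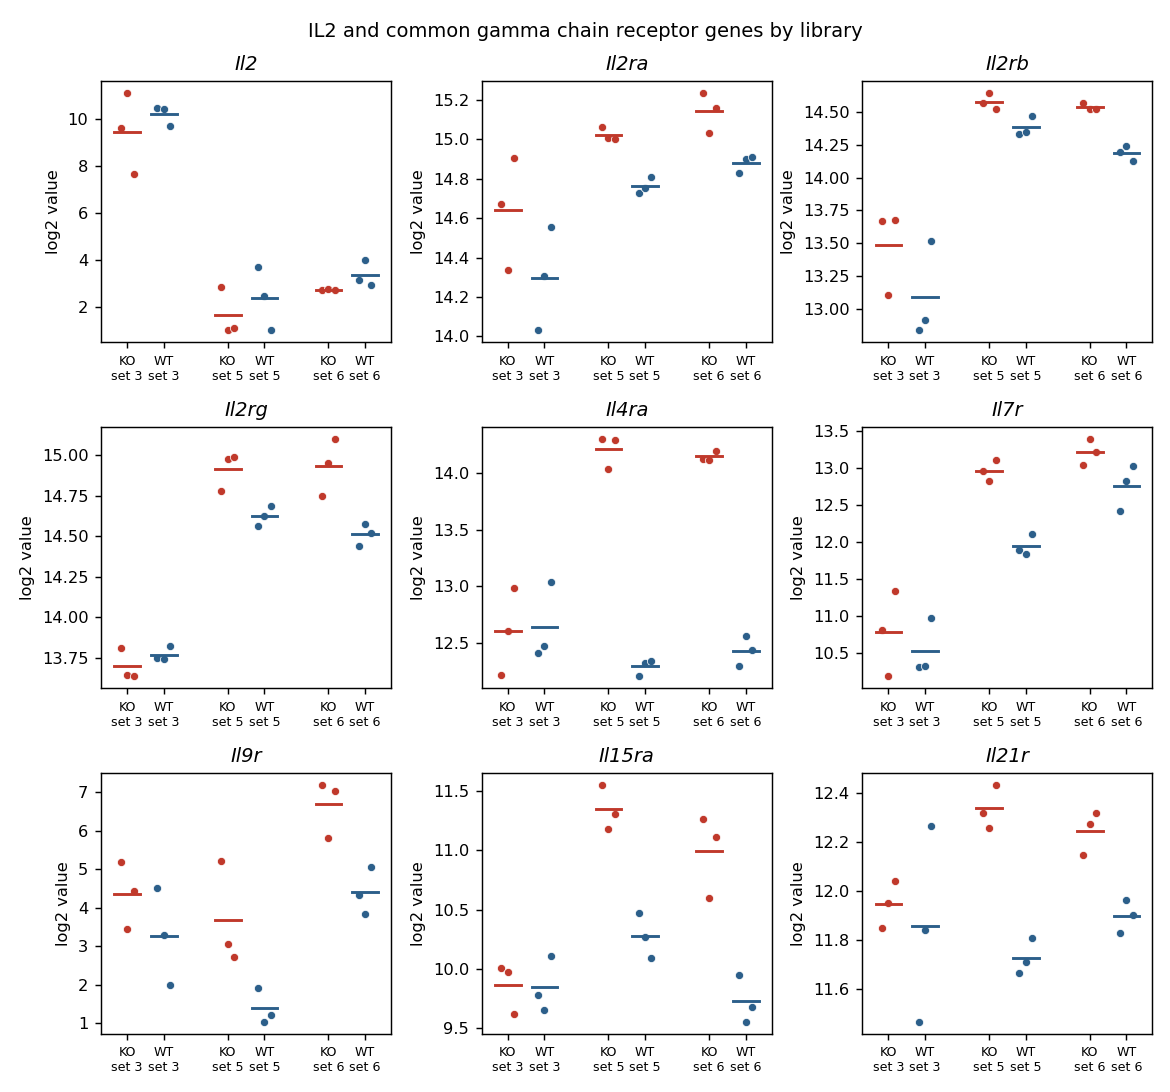
Deposited log2 value (vertical axes, a scale of its own for each gene) of the 9 genes in the 18 libraries, with KO libraries in red left of WT libraries in blue for each set and a bar at each group mean of 3 libraries. Il2 lies above 7 in every library of set 3 and at 4.001 or below elsewhere, and Il4ra stands above 14 only in the KO libraries of sets 5 and 6.

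None of the 3 chains of the IL2 receptor was called between KO and WT cells relative to the median of all genes, in any set. Il2ra, the alpha chain that gives the receptor its high affinity, read 14.67, 14.34 and 14.91 in the KO libraries of set 3, against 14.03, 14.31 and 14.56 in the WT libraries. In set 5 the KO libraries read 15.06, 15.01 and 15.00, against 14.73, 14.75 and 14.81 in WT. In set 6 they read 15.24, 15.03 and 15.16, against 14.83, 14.90 and 14.91 in WT. KO values lay above all WT values in sets 5 and 6 and overlapped them in set 3. The differences were 0.34 (SE 0.12; adjusted p = 0.0881), 0.26 (adjusted p = 0.0805) and 0.26 (adjusted p = 0.0772), none called. A fit on the groups of each comparison alone called Il2ra in sets 5 and 6 (adjusted p = 0.00477 and 0.0116). With libraries centred they were 0.37 in set 3 but turned to -0.13 in set 5 and -0.15 in set 6.

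Il2rb, the beta chain shared with the IL15 receptor, read 13.67, 13.11 and 13.68 in the KO libraries of set 3, against 12.84, 12.92 and 13.52 in the WT libraries. In sets 5 and 6 its KO values, 14.57, 14.64 and 14.52 and then 14.57, 14.52 and 14.52, lay above the WT values of 14.33, 14.35 and 14.47 in set 5 and 14.20, 14.24 and 14.13 in set 6. The differences of 0.39, 0.19 and 0.35 (SE 0.15 each) were not called (adjusted p = 0.106, 0.288 and 0.0596), except in fits on the groups of sets 5 and 6 alone (adjusted p = 0.0335 and 0.00125), and turned to -0.20 in set 5 and -0.06 in set 6 relative to the median of all genes. Il2ra and Il2rb were called in set 3 without KO replicate 2 or without WT replicate 3 (lowest adjusted p 0.00813 and 0.00764), the libraries in which these genes stood lowest among KO and highest among WT libraries.

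Il2rg, the common gamma chain, read 13.81, 13.65 and 13.64 in the KO libraries of set 3, against 13.75, 13.74 and 13.82 in the WT libraries, a difference of -0.07 (SE 0.08; adjusted p = 0.593). In set 5 it read 14.78, 14.98 and 14.99 in KO libraries, against 14.56, 14.63 and 14.69 in WT libraries. In set 6 it read 14.75, 14.95 and 15.10, against 14.44, 14.58 and 14.52. KO and WT values did not overlap in either of these sets. The differences of 0.29 (adjusted p = 0.00598) and 0.42 (adjusted p = 0.000377) were called on the deposited values, but relative to the median of all genes they were -0.10 and 0.01 and were not called.

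Il4ra, the chain that pairs with the gamma chain to bind IL4 and is also part of the IL13 receptor, had the smallest adjusted p among the 9 genes in KO against WT cells of sets 5 and 6. In set 3 it read 12.22, 12.60 and 12.99 in the KO libraries, against 12.41, 12.47 and 13.04 in the WT libraries, and the values overlapped. In set 5 the KO libraries read 14.31, 14.04 and 14.30, against 12.21, 12.33 and 12.34 in the WT libraries. In set 6 they read 14.13, 14.12 and 14.20, against 12.29, 12.56 and 12.44. Il4ra was thus 3.79-fold higher in KO cells of set 5 (log2 difference 1.92, SE 0.17; adjusted p = 1.34e-07) and 3.29-fold higher in set 6 (1.72; adjusted p = 5.71e-07). It was still higher relative to the median of all genes, by 1.53 in set 5 (adjusted p = 3.77e-06) and 1.31 in set 6 (adjusted p = 3.32e-05). In set 3 the difference was -0.04 (95% interval -0.40 to 0.33; adjusted p = 0.906), and it took either sign when single libraries were left out, between -0.23 and 0.16.

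Il15ra, the alpha chain that binds IL15 and presents it to neighbouring cells, rose likewise in KO cells of sets 5 and 6. It read 11.55, 11.18 and 11.31 in the KO libraries of set 5, against 10.47, 10.27 and 10.09 in the WT libraries. In set 6 it read 11.26, 10.60 and 11.11 in KO libraries, against 9.95, 9.55 and 9.68 in WT libraries. In set 3 the KO values of 10.00, 9.98 and 9.62 overlapped the WT values of 9.78, 9.66 and 10.11. KO cells held 2.10-fold more in set 5 (log2 difference 1.07, SE 0.18; adjusted p = 7.2e-05) and 2.40-fold more in set 6 (1.26; adjusted p = 1.65e-05). These calls held relative to the median of all genes, with differences of 0.68 (adjusted p = 0.00446) and 0.85 (adjusted p = 0.00136), and the difference in set 3 was 0.02 (adjusted p = 0.957).

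Il7r, the chain that binds IL7, a survival signal of resting and memory T cells, was called higher in KO cells of set 5 only in the main fit. It read 12.96, 12.83 and 13.11 in the KO libraries of set 5, against 11.90, 11.84 and 12.11 in the WT libraries, which did not overlap. In set 6 the KO libraries read 13.04, 13.40 and 13.22, against 12.43, 12.83 and 13.03 in WT, also without overlap. In set 3 they read 10.82, 10.20 and 11.34, against 10.31, 10.33 and 10.97. The difference was 1.02 in set 5 (SE 0.23; adjusted p = 0.0014; 0.63 relative to the median of all genes, adjusted p = 0.0353). In set 6 it was 0.46 (adjusted p = 0.105; 0.04 relative to the median of all genes), and in set 3 it was 0.25 (adjusted p = 0.52). The difference in set 6 was called with the replicate number as a block and in a fit on the groups of set 6 alone. The KO effects of sets 6 and 5 were not found to differ (-0.56, 95% interval -1.28 to 0.16; adjusted p = 0.564).

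Il21r, the chain that binds IL21, moved by less. It read 12.32, 12.26 and 12.43 in the KO libraries of set 5, against 11.67, 11.71 and 11.81 in the WT libraries, a difference of 0.61 (SE 0.13; adjusted p = 0.000986) without overlap. In set 6 it read 12.15, 12.27 and 12.32 in KO libraries, against 11.83, 11.96 and 11.90 in WT libraries, a difference of 0.35 (adjusted p = 0.0346). Relative to the median of all genes the differences were 0.22 in set 5 and -0.06 in set 6, neither called (adjusted p = 0.189 and 0.743), and the call in set 6 was lost when any 1 of KO replicates 2 and 3 and WT replicates 1 and 3 was left out (highest adjusted p 0.0981). In set 3 the KO values of 11.85, 11.95 and 12.04 lay within the WT values of 11.47, 11.84 and 12.27 (difference 0.09; adjusted p = 0.698).

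Il9r, the chain that binds IL9, was a low transcript whose replicates scattered widely. It read 5.21, 3.07 and 2.73 in the KO libraries of set 5, against 1.91, 1.03 and 1.21 in the WT libraries, with WT replicate 2 at its library's lowest value. In set 6 it read 7.21, 5.82 and 7.04 in KO libraries, against 4.33, 3.85 and 5.07 in WT libraries. In set 3 it read 5.18, 3.45 and 4.43, against 4.53, 3.28 and 1.99. KO values lay above all WT values in sets 5 and 6, with differences of 2.29 (SE 0.71; adjusted p = 0.0111) and 2.27 (adjusted p = 0.0116), and in set 3 the difference of 1.08 was not called (adjusted p = 0.341). Both calls stood, relative to the median of all genes, at the edge of the threshold (1.896, adjusted p = 0.0356, and 1.86, adjusted p = 0.0492). They were lost with quantile normalization (adjusted p = 0.0581 and 0.0687) and with a minimum fold of 1.2 on centred values (adjusted p = 0.0767 and 0.122). Without KO replicate 1 of set 5, which carried the most Il9r there, the difference was 1.51 (adjusted p = 0.0749).

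Counted over the 9 genes, none was called between KO and WT cells in set 3, where 11.4% of all genes were called and 2 of the 9 (Il2ra and Il2rb) had an unadjusted p under 0.05. In set 5, 6 of the 9 were called higher, beside 50.1% of all genes, and 4 relative to the median of all genes, beside 24.9%. In set 6, 5 of the 9 were called higher, beside 53.9% of all genes, and 3 relative to the median, beside 18.8%. The median difference of the 9 genes was 0.09, 0.61 and 0.42 in sets 3, 5 and 6, against -0.07, 0.39 and 0.42 for all genes. Of the 9 genes, 0, 5 and 3 in the authors' deposited table had an adjusted p under 0.05 in these comparisons, beside 3.91%, 37.8% and 35.1% of all genes. The 5 genes in the authors' deposited table were Il4ra, Il7r, Il9r, Il15ra and Il21r, and the 3 were Il4ra, Il9r and Il15ra, so that Il2rg, called here in both sets, was not called there (adjusted p = 0.56 and 0.0873). With a minimum fold of 1.2 the limma fit likewise did not call Il2rg (adjusted p = 0.56 and 0.0885), nor Il21r in set 6 (adjusted p = 0.441), and called 492, 4743 and 4419 of all genes, against 491, 4741 and 4410 in the authors' deposited table.

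**Figure D2:**
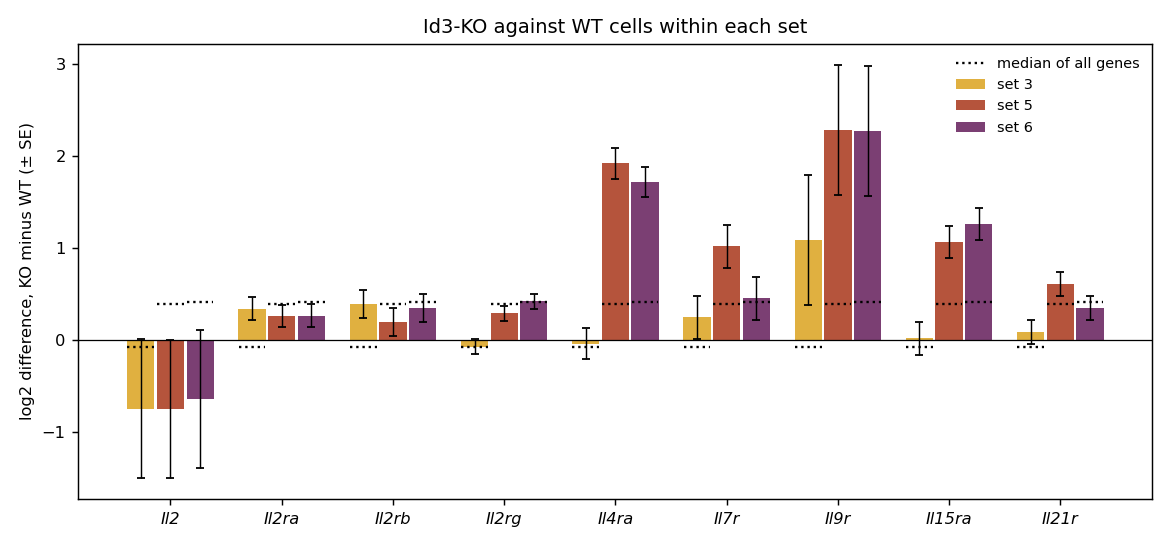
Log2 difference, KO minus WT (vertical axis), of each gene in sets 3, 5 and 6 from 3 libraries a group, with bars from 0, whiskers of 1 SE and a dotted line at the median of all genes in that set. Il4ra, Il9r and Il15ra rise clear of the dotted line in sets 5 and 6, whereas Il2ra and Il2rb lie below it there.

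Whether the KO effect itself differed between sets was tested as a difference of differences. Between sets 5 and 3, Il4ra had an effect larger by 1.96 (SE 0.24; adjusted p = 8.35e-06), Il15ra by 1.05 (SE 0.25; adjusted p = 0.00229), Il21r by 0.52 (adjusted p = 0.0315) and Il2rg by 0.37 (adjusted p = 0.0157), so 4 of the 9 were called higher, beside 43.2% of all genes. Relative to the median of all genes, Il4ra alone was still called higher (1.55; adjusted p = 0.00021), beside 18.7% of all genes, and Il2rg turned to -0.05. Il2ra (-0.49; adjusted p = 0.0361) and Il2rb (-0.62; adjusted p = 0.0335) were called lower, as were 18.5% of all genes. Il21r was not called on that scale (0.10; adjusted p = 0.701), and on the deposited values 5 libraries each decided its call: leaving out KO replicate 1 or WT replicate 3 in set 3, or KO replicate 3, WT replicate 1 or WT replicate 2 in set 5, gave adjusted p of up to 0.0717.

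Between sets 6 and 3, the effect was larger by 1.76 for Il4ra (adjusted p = 3.04e-05), by 1.24 for Il15ra (adjusted p = 0.00069) and by 0.50 for Il2rg (adjusted p = 0.00235), 3 of the 9, beside 46.2% of all genes. Relative to the median of all genes, Il4ra (1.32; adjusted p = 0.00129) and Il15ra (0.81; adjusted p = 0.0274) were called higher, beside 12.7% of all genes. Il2ra was called lower (-0.51; adjusted p = 0.0427), where 11.4% of all genes were called lower. Between sets 6 and 5 none of the 9 effects was called by limma and none had an unadjusted p under 0.05. Over all genes 0.0% were called there, with 1320 genes at an unadjusted p under 0.05.

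Set 5 was then set against set 3 within each genotype, using the same libraries as the comparisons above. In KO cells 7 of the 9 genes were called higher in set 5, beside 49.8% of all genes, and Il2 lower, beside 23.4%. In WT cells 5 were called higher, beside 29.3% of all genes, and Il2 and Il9r lower, beside 38.3%. The median difference of all genes was 0.38 in KO cells and -0.12 in WT cells, and after centring 5 genes remained higher in KO cells, without Il2ra and Il21r, while in WT cells all 7 calls held. With libraries centred, 35.6% of all genes were higher and 35.7% lower in KO cells. In WT cells the shares were 30.5% higher and 36.8% lower.

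The gamma and beta chains rose in both genotypes: Il2rg by 1.22 in KO cells (SE 0.08; adjusted p = 1.54e-09) and 0.85 in WT cells (adjusted p = 1.49e-07), and Il2rb by 1.09 (SE 0.15; adjusted p = 6.66e-06) and 1.29 (adjusted p = 1.4e-06). Il2ra rose by 0.38 in KO cells (adjusted p = 0.0105) and 0.46 in WT cells (adjusted p = 0.00345), the first of these 0.00 relative to the median of all genes and lost without KO replicate 2 of set 3 (adjusted p = 0.0755). Il7r, the gene with the largest rise, was higher by 2.18 in KO cells (SE 0.23; adjusted p = 3.4e-07), a 4.54-fold difference, and by 1.41 in WT cells (adjusted p = 5.67e-05), a 2.66-fold difference. Il4ra was higher by 1.61 in KO cells (adjusted p = 2.27e-07) but not in WT cells (-0.35; adjusted p = 0.0767). Il15ra was higher by 1.48 in KO cells (adjusted p = 1.08e-06) and by 0.43 in WT cells (adjusted p = 0.0399), and the call in WT cells was lost without WT replicate 1 or 2 of either set (highest adjusted p 0.149).

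Il21r was higher by 0.39 in KO cells (adjusted p = 0.0151; 0.01 relative to the median of all genes), and differed by -0.13 in WT cells (adjusted p = 0.411). The call in KO cells needed KO replicate 1 of set 3 and KO replicate 3 of set 5 (highest adjusted p 0.0566 on leaving out either). Il9r differed by -0.68 in KO cells (adjusted p = 0.396) and by -1.88 in WT cells (adjusted p = 0.027), and the call in WT cells was lost without WT replicate 1 or 2 of set 3 or WT replicate 2 or 3 of set 5 (highest adjusted p 0.149).

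**Figure D3:**
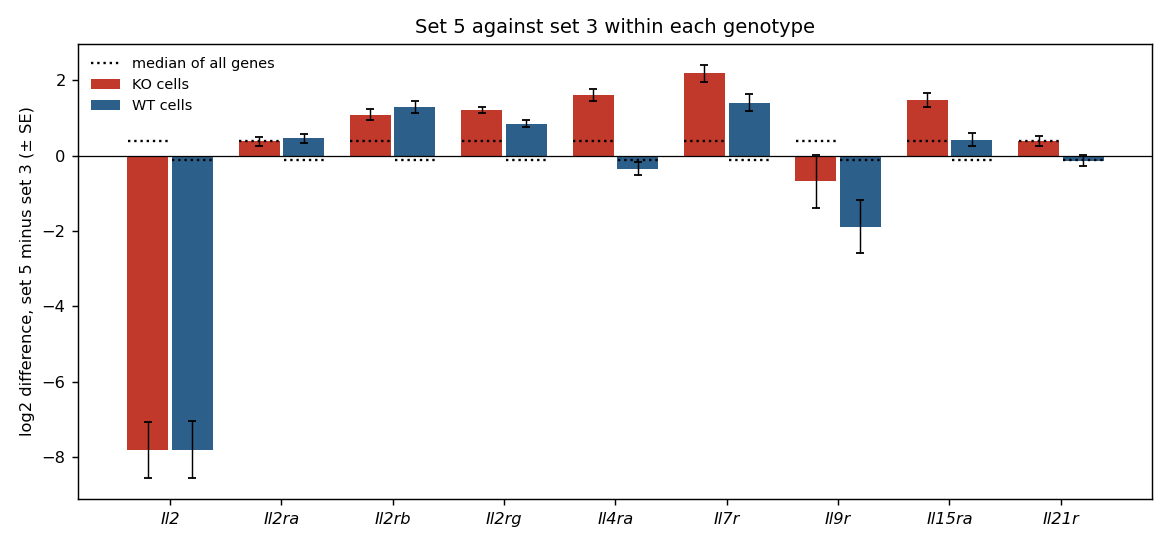
Log2 difference, set 5 minus set 3 (vertical axis), of each gene in KO cells (red) and WT cells (blue) from 3 libraries a group, with bars from 0, whiskers of 1 SE and a dotted line at the median of all genes. Il2 reaches -7.81 and -7.80, and Il4ra is the gene whose bars point in opposite directions with the widest gap.

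Between sets 6 and 5, Il9r alone was called in each genotype. It was higher in set 6 by 3.02 in KO cells (SE 0.71; adjusted p = 0.0136), where 9.93% of all genes were called higher, and by 3.03 in WT cells (SE 0.71; adjusted p = 0.0286), where 3.01% were. The KO values of 7.21, 5.82 and 7.04 in set 6 and 5.21, 3.07 and 2.73 in set 5 did not overlap, nor did the WT values of 4.33, 3.85 and 5.07 in set 6 and 1.91, 1.03 and 1.21 in set 5. The call in KO cells was lost without KO replicate 3 of set 5 or KO replicate 1 of set 6 (adjusted p = 0.0715 and 0.0595), and the call in WT cells was lost without any 1 of its 6 libraries (adjusted p = 0.0548 to 0.134). In the authors' deposited table Il9r had adjusted p of 0.076 and 0.0801 in these contrasts, and none of the 9 genes was called. Il7r in WT cells was higher by 0.81 in set 6 without a call (adjusted p = 0.068), and was called with the replicate number as a block (adjusted p = 0.0248) and in a fit on those 2 groups alone (adjusted p = 0.0286).

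Placed in order of their means, the 6 groups had the same order for Il2ra and Il7r and other orders for the other genes. For Il2 the order was WT set 3, KO set 3, WT set 6, KO set 6, WT set 5 and KO set 5, and of the neighbours in it only KO set 3 and WT set 6, and WT set 6 and KO set 6, did not overlap in range. Il4ra had KO sets 5 and 6 at the top, overlapping each other, and a gap of 1.51 to WT set 3, below which all 4 remaining groups overlapped their neighbours. For Il7r the order was KO set 6, KO set 5, WT set 6, WT set 5, KO set 3 and WT set 3, with breaks on either side of WT set 5. Il15ra broke between KO set 6 and WT set 5 and between WT set 5 and KO set 3. Il2rb and Il2rg had their widest gap, 0.70 and 0.74, between WT set 6 and the groups of set 3. Il2ra broke on either side of WT set 6, and Il21r only between KO set 6 and KO set 3. Il9r broke below KO set 6 and above WT set 5.

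Within set 3 the replicates of a group had larger SDs than in the later sets for Il2ra, Il2rb and Il7r, and these genes varied together and with Il2. The 3 libraries with the most Il2 were KO replicate 2 (11.10), WT replicate 1 (10.44) and WT replicate 2 (10.43). These 3 had Il7r at 10.20, 10.31 and 10.33, whereas WT replicate 3, KO replicate 1 and KO replicate 3, with less Il2, had 10.97, 10.82 and 11.34. They also had the lowest Il2ra, 14.34, 14.03 and 14.31, against 14.56, 14.67 and 14.91 in the other 3, and the lowest Il2rb, 13.11, 12.84 and 12.92, against 13.52, 13.67 and 13.68. Il2 was thus low where Il2ra, Il2rb and Il7r were high, in libraries of both genotypes. Over all 18 libraries, after subtracting group means, Pearson's r with Il2 was -0.64 for Il7r, -0.59 for Il2ra and -0.55 for Il2rb, and r between Il2ra and Il2rb was 0.86. The points share their normalization within groups, and this is a description only. The summed level of B cell markers also varied among these libraries, between 7.96 and 10.90 in KO and between 6.16 and 7.40 in WT libraries, and their part in the pattern was not tested.

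**Figure D4:**
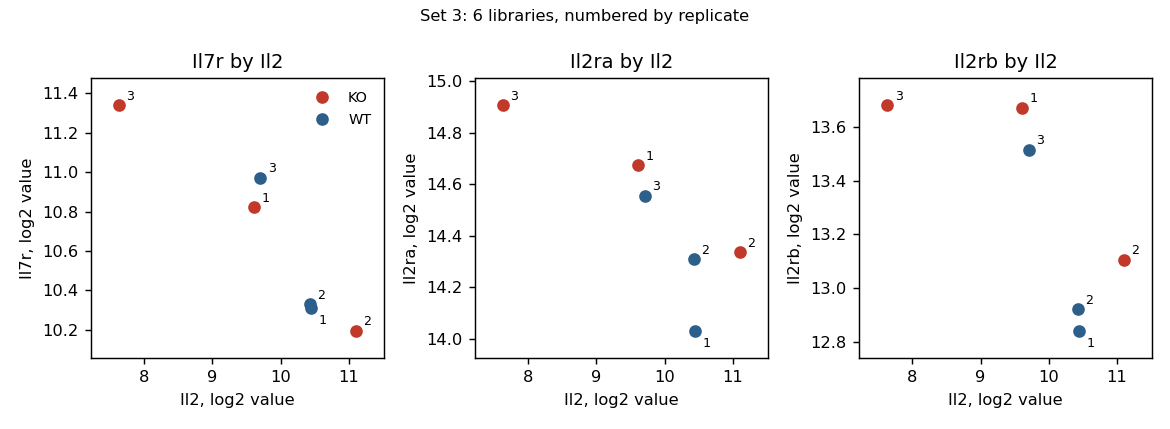
Il7r, Il2ra and Il2rb (vertical axes, log2 value) against Il2 (horizontal axes, log2 value) in the 6 libraries of set 3, with KO in red, WT in blue and the replicate number beside each point. The 3 libraries with Il2 above 10 hold the lowest values of the other genes in every panel.

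For each of the 9 genes the 3 most alike genes were taken by Pearson's r over the 18 libraries, among genes with a mean of 6 or more. Il2 was most like Phb2, Rps19bp1 and Hspe1 (r = 0.98 each), and Il4ra was most like Gmip (0.99), Med13l (0.99) and Auh (0.98). Il2rg had Rgs3 and Cyba among its nearest (0.99 each), and Il2rb was followed most closely by Ifi27, Socs2 and Vim (0.98 each). Nearest to Il7r were Sdcbp, Septin9 and Itgb2 (0.98 each). Il2ra, with Atp2b4, Cysltr1 and Slc35a2, and Il15ra, with Nfkbia, Slc25a36 and Retsat, had r between 0.95 and 0.96. The closest genes to Il21r were Zswim6, Chmp4b and Sorl1 (0.93, 0.90 and 0.89) and those to Il9r were Adipor2, Hps6 and Arid3a (0.92, 0.89 and 0.89). Differences between the 6 groups dominate these values.

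For the lists that follow, the counts are to be read beside the shares of all genes called, which were 6.92% higher and 4.46% lower in set 3, 50.1% higher and 8.08% lower in set 5 and 53.9% higher and 4.59% lower in set 6. With libraries centred, 24.9% were higher and 24.7% lower in set 5, and 18.8% higher and 18.5% lower in set 6. Of 11 transducers (kinases, STATs and adaptors), 2 were higher and 1 lower in KO cells of set 3, 9 higher and 1 lower in set 5, and 9 higher and 0 lower in set 6, where 50.1% and 53.9% of all genes were higher. With libraries centred, the counts were 8 higher and 2 lower in set 5 and 5 higher and 3 lower in set 6. Irs2, an adaptor of the IL4 receptor, had the smallest adjusted p, with 11.06, 10.94 and 11.27 in the KO libraries of set 5, against 9.08, 8.94 and 8.95 in the WT libraries (2.10, SE 0.13; adjusted p = 9.62e-09), and by 2.33 in set 6 (adjusted p = 5.85e-09). Stat3, which IL21 activates, read 12.56, 12.57 and 12.55 in KO libraries of set 5, against 11.35, 11.60 and 11.70 in WT libraries, and rose by 1.01 there and by 0.87 in set 6 (adjusted p = 1.18e-07 and 7.23e-07). Shc1, an adaptor of the beta chain, rose by 0.77 in both sets (adjusted p = 2.37e-07 and 3.59e-07). The 3 calls of set 3 (Irs2 and Gab2 higher, Pik3cd lower) changed with single libraries, to between 0 and 2 higher and 0 and 1 lower, with 0 of either without KO replicate 3, WT replicate 1 or WT replicate 3.

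Of 7 genes that damp cytokine signals, 5 were higher and 1 lower in KO cells of set 5, and 4 higher and 1 lower in set 6, beside 50.1% and 53.9% of all genes higher. Of these 7, 3 were higher and 2 lower in each set relative to the median of all genes, beside 24.9% and 18.8% higher. Cish, a STAT5 target that restrains the IL2 receptor, read 13.34, 13.29 and 13.34 in the KO libraries of set 5, against 11.49, 12.11 and 11.90 in the WT libraries (1.49, SE 0.13; adjusted p = 1.43e-07), and rose by 1.23 in set 6 (adjusted p = 1.2e-06). Ptpn2, a phosphatase of JAK1 and STAT5, rose by 0.78 and 0.84 (adjusted p = 6.14e-08 and 5.59e-08), and Socs1 by 1.43 and 1.31 (adjusted p = 6.96e-06 and 2e-05). Ptpn6, the phosphatase SHP-1, was lower in KO cells of all 3 sets, with differences of -0.57, -0.76 and -0.75 (adjusted p = 0.0165, 0.000257 and 0.000306). In set 3 that was the only call, and KO replicates 1 and 3 and WT replicates 1 and 2 were each needed for it. In set 5 the higher count was 3 without KO replicate 3 or WT replicate 1.

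Of 19 genes that IL2 and STAT5 are known to induce, 4 were higher and 2 lower in KO cells of set 3, 12 higher and 3 lower in set 5, and 10 higher and 2 lower in set 6. The shares of all genes higher were 6.92%, 50.1% and 53.9%, and the share of the list in set 6 was near that of all genes. With libraries centred, 9 were higher and 3 lower in set 5 and 9 higher and 5 lower in set 6. Tnfrsf4 (OX40), Pim1 and Mcl1 led in both later sets, with rises in set 5 of 0.97, 1.28 and 1.26 (adjusted p = 1.03e-08, 1.7e-07 and 3.34e-07), whereas Tnfrsf4 was lower by -0.23 in set 3 (adjusted p = 0.0211). Pim2, a kinase related to Pim1, went the other way, with 12.52, 13.06 and 12.46 in the KO libraries of set 5, against 13.94, 14.03 and 13.90 in the WT libraries (-1.27, SE 0.17; adjusted p = 7.99e-06), and was lower in sets 3 and 6 too (-0.67 and -1.42; adjusted p = 0.0161 and 3.36e-06). Gzmb, Tnfrsf9 and Prdm1 led the higher genes of set 3, whose count was 1 if any of KO replicates 1 and 3 and WT replicate 1 was left out. The count of lower genes in set 3 became 0 on leaving out the first replicate of either genotype and 1 on leaving out WT replicate 2 or 3. In set 6 it became 1 on leaving out any of KO replicates 1 and 3 and WT replicates 2 and 3. The list median was -0.02, 0.85 and 0.55 in sets 3, 5 and 6, against -0.07, 0.39 and 0.42 over all genes.

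Of 19 factors known to act on Il2 transcription, 6 were higher and 1 lower in KO cells of set 3, and 18 were higher and 0 lower in each of sets 5 and 6, beside 6.92%, 50.1% and 53.9% of all genes higher. With libraries centred, the counts were 15 higher and 1 lower in set 5 and 12 higher and 1 lower in set 6, beside 24.9% and 18.8% of all genes higher. The list holds activators and repressors. Ikzf3 (Aiolos), a repressor of Il2, read 13.06, 12.24 and 13.04 in the KO libraries of set 5, against 9.80, 10.03 and 10.05 in the WT libraries (2.82, SE 0.24; adjusted p = 1.3e-07), and Satb1 rose by 1.31 and the NF-kappaB subunit gene Rela by 1.08 there (adjusted p = 1.86e-08 and 1.21e-07). Ikzf1 (Ikaros), also a repressor of Il2, was the gene called lower in set 3 (-0.79; adjusted p = 1.09e-05). The higher count of set 3 ranged from 4 to 9 as single libraries were left out, that of set 5 from 16 to 17 and that of set 6 from 17 to 18. Il2 itself, as given above, did not differ by test between KO and WT cells in any set.

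Of 7 factors known to act on Il7r, 6 were higher in KO cells of set 5, and 5 were higher and 1 (Klf2) lower in set 6, beside 50.1% and 53.9% of all genes higher. With libraries centred, 5 were higher in set 5, and 3 higher and 1 lower in set 6, beside 24.9% and 18.8% higher. This list, too, holds activators and repressors. Foxo1, an activator of Il7r, rose by 1.10 in set 5 and by 0.63 in set 6 (adjusted p = 1.14e-07 and 3.06e-05), the second of these 0.22 relative to the median of all genes and not called (adjusted p = 0.0758). Gfi1 and Foxp1 were also among the genes higher in set 5, and Gfi1 among those higher in set 6, on both scales. In set 3, 2 were lower (Ets1 and Foxp1), 0 or 1 when any 1 library was left out. Of 4 partner chains from outside the family, Crlf2, which pairs with Il7r to form the receptor of TSLP, rose by 1.64 and 1.67 in sets 5 and 6 (adjusted p = 2.88e-08 and 4.27e-08). Il12rb1 rose by 1.80 and 1.39 (adjusted p = 1.86e-08 and 2.44e-07), while Il12rb2, its partner in the IL12 receptor, was lower by -0.91 in set 6 (adjusted p = 0.0095). Il13ra1, which pairs with Il4ra in the IL13 receptor, was low in all groups and not called, and none of the 4 was called in set 3.

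Markers of the cells were counted in the same way. Of 7 measured CD4 T cell genes, 4 were lower in KO cells of set 3, and 6 were higher in each of sets 5 and 6, beside the shares of all genes given above. Relative to the median of all genes, Cd247 and Cd4 were higher in both sets and Cd5 was lower in set 5. Their summed level (log2 of the sum of linear values) was 16.38 to 16.48 in KO and 15.92 to 16.02 in WT libraries of set 5, and 15.02 to 15.15 in KO and 15.38 to 15.43 in WT libraries of set 3. Of 6 Th1 genes, Ifng and Cxcr3 were higher in KO cells of set 3, and 2 were lower in set 5 and 4 in set 6 (Il18r1, Cxcr3, Il12rb2 and Stat4), with Ifng higher in both sets, though not relative to the median of all genes, on which scale 4 were lower in each. Tbx21, the remaining gene of this list, was not called in any set on either scale. In set 3, B cell genes were higher in KO cells for 6 of 7, a count that became 0 on leaving out KO replicate 1, 4 on leaving out KO replicate 3 and 1 on leaving out WT replicate 1 or 2, with summed levels of 7.96 to 10.90 in KO and 6.16 to 7.40 in WT libraries. In sets 5 and 6, 1 and 0 of the 7 were higher, with sums of 6.89 to 7.08 in KO and 5.57 to 5.85 in WT libraries of set 5. Mast cell and basophil genes were higher in KO cells of set 3 for 6 of 7, with sums of 9.53 to 9.83 in KO and 6.25 to 7.06 in WT libraries. In set 5 the sums were 5.98 to 6.96 in KO and 7.62 to 8.07 in WT libraries, Tpsb2 lay at the lowest values in both, and 1 gene was higher (Hdc) and 1 lower (Kit). Kit alone held most of the WT sums there, so these sums do not stand for the list as a whole.

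Of 8 regulatory T cell genes, a list that holds Il2ra, 1 was lower in KO cells of set 3 and 3 and 4 were higher in sets 5 and 6, beside 50.1% and 53.9% of all genes, with sums of 15.96 to 16.13 in KO and 15.35 to 15.46 in WT libraries of set 5. Il2ra alone held most of the WT sums there, so these sums do not stand for the list as a whole. Foxp3, the defining gene, did not pass in sets 3 and 5 (-0.08 and 0.60; adjusted p = 0.899 and 0.117) and was higher by 1.17 in set 6 (adjusted p = 0.00509; 0.76 relative to the median of all genes, adjusted p = 0.0743). Of 7 NK cell genes, 2, 3 and 0 were higher and 0, 0 and 1 lower in sets 3, 5 and 6. The 3 higher in set 5 were Klrk1, Klra8 and Klre1, of which Klrk1 and Klra8 were also called relative to the median of all genes. Klrk1 read 8.31, 7.69 and 8.88 in KO libraries of set 5, against 5.62, 7.75 and 6.98 in WT libraries. Klra8 read 1.02, 4.79 and 5.71 in KO libraries there, and all WT libraries lay at their lowest value. Klrd1, not called in set 5, read 9.45, 9.61 and 10.67 in KO libraries, against 9.53, 10.41 and 10.25 in WT libraries. Ncr1, also not called, averaged 1.04 in KO and 1.06 in WT libraries of set 5, next to the lowest values. Of 5 ILC2 genes, 2, 3 and 3 were higher, with sums of 7.35 to 9.03 in KO and 7.01 to 7.61 in WT libraries of set 5 and 7.67 to 10.03 in KO and 8.28 to 8.71 in WT libraries of set 6. The 3 higher in sets 5 and 6 were Klrg1, Il17rb and Areg, called on both scales. Il1rl1, not called in these sets, read 6.91, 7.23 and 7.50 in WT libraries of set 5. It held most of the WT sums in both sets, so these sums do not stand for the list as a whole. Of 5 dendritic cell and macrophage genes, 2, 2 and 1 were higher. Batf3 and Adgre1 were those higher in set 5, with Batf3 at 8.95, 7.20 and 8.53 in KO and 5.10, 7.37 and 6.11 in WT libraries, while Lyz2 averaged 1.38 in KO and 1.06 in WT libraries there. Of 3 NKT and gamma delta T cell genes 2, 1 and 2 were higher, with Zbtb16 in all 3 sets, and of 2 CD8 genes 0, 1 and 0. The 13 mitochondrially encoded genes gave no call in set 3, and 6 and 3 higher in sets 5 and 6, and relative to the median of all genes 0 were higher and 3 and 6 lower. Single libraries moved several of these small counts: in set 3 the dendritic cell and macrophage count was 0 without any 1 library other than KO replicate 2, and the NKT and gamma delta count was 1. There the NK cell count was 1 on leaving out the first or the third replicate of either genotype. The ILC2 count of set 3 was 4 on leaving out KO replicate 2 and 1 on leaving out any other library but WT replicate 3. In set 5 the NK cell count was 1 without KO replicate 3, and the ILC2 count was 2 without KO replicate 1. The part of these markers in the differences of Il4ra, Il7r, Il9r, Il15ra and Il21r was not tested.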

How the data were processed

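RNA was measured by poly(A)-selected, directional RNA-seq in 18 libraries, 3 in each of 6 groups given by the labels. The authors deposited log2 values of counts per gene. Per the submitters' processing notes, Salmon 1.9.0, edgeR, limma and GRCm39 were used, with no roles given; the normalization and the constant added before taking logs are not given in the sources used here. Tested on the values, 97.0 to 98.4% of the sorted values within a group were identical (tolerance 1e-06), so the libraries of a group had been equalized, which narrows their spread and can make p-values too small. Depth is unknown. The authors' deposited table of comparisons gives log2 fold changes, p-values and adjusted p-values, used only where named; its score columns, deposited by the authors, were not used.

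The members and gene lists were chosen with earlier results of these data known. One limma 3.58.1 model (R 4.3.3) of the 6 group means was fitted to all 12547 genes with a trend in the prior variance, leaving 12 residual degrees of freedom, with Benjamini-Hochberg adjustment over all genes and a threshold of 0.05. It was tested on simulated data. The filter on low values removed 0 genes. Each member is named, and of each list at most 3 genes called in a direction, by the smallest adjusted p, besides defining markers. Values of 2 genes that these rules would name are not reported here. Alternatives were median centring, quantile normalization, a stricter filter, a replicate block, fits on the groups of a comparison alone, no trend, minimum folds and leaving out each library. Same-numbered libraries of sets 5 and 6 deviated together in each genotype (r of 0.22 to 0.34 in KO and 0.12 to 0.16 in WT), but KO and WT libraries of a set did not (-0.08 to 0.18). Between sets 3 and 5, same-numbered r was weaker, 0.025 to 0.15 in KO and 0.069 to 0.074 in WT. Other pairs there reached 0.061 and -0.030. Between sets 3 and 6 it was 0.014 to 0.18 and 0.044 to 0.075, and other pairs reached 0.035 and 0.0063. Numbers may thus be pairs between all sets of a genotype, and the main fit used no pairs.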

Additional observations from a re-analysis of the deposited data

Results flagged for a closer look

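The effect of the KO differed between sets by a test of the difference itself for 4 of the 9 genes between sets 5 and 3, beside 43.2% of all genes called higher, and for 3 between sets 6 and 3, beside 46.2%. It was larger in set 5 than in set 3 by 1.96 for Il4ra, 1.05 for Il15ra, 0.52 for Il21r and 0.37 for Il2rg on the log2 scale. It was larger in set 6 than in set 3 by 1.76 for Il4ra, 1.24 for Il15ra and 0.50 for Il2rg. Relative to the median of all genes, Il4ra was called in both of these tests and Il15ra in that of sets 6 and 3, while Il2ra was called lower in both (-0.49 and -0.51) and Il2rb lower between sets 5 and 3 (-0.62). On that scale 18.7% of all genes were higher and 18.5% lower between sets 5 and 3. Between sets 6 and 3 the shares were 12.7% and 11.4%.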

How the results depend on the processing

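Over all alternatives, results for single genes kept direction and call in 927 cases, lost a call in 87, gained one in 20 and changed direction in 38, and counts over the 9 genes stayed within 1.5 times in 172 cases and moved further in 33. The cause was not tested. In set 5 (6 called) quantile normalization gave 3 and a minimum fold of 1.2 with centring, chosen after seeing the data, gave 1. In set 6 (5 called) the count was 3 with centring, a minimum fold of 1.2 or a log2 difference of 1 or more, 2 with quantile normalization or the minimum fold with centring, and 8 with the groups of the comparison alone. For the KO effect, sets 5 and 3 (4 called) gave 2 with a minimum fold of 1.2 or a log2 difference of 1 or more and 1 with the minimum fold and centring, as did sets 6 and 3 (3 called). For WT cells, sets 5 and 3 (7 called) gave 4 with a log2 difference of 1 or more. For sets 6 and 5 (1 called in each genotype) the minimum fold, alone or with centring, gave 0 in both. The stricter filter also gave 0 in both, but it removed Il9r, the gene called, before the test, so it cannot tell whether that call holds. For these sets the groups alone gave 0 in KO and 2 in WT cells, and quantile normalization gave 0 in WT cells. Leaving out 1 library gave 0 to 2 in set 3 and 0 to 1 for sets 6 and 5 in either genotype.

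With the replicate block, overall or within genotype, the WT count for sets 6 and 5 was 2, through Il7r (0.81; adjusted p = 0.0248 and 0.0265 by limma). Il7r in set 6, KO against WT, which is no paired comparison, was also called with the block (0.46; adjusted p = 0.0428), and over all genes the KO effect between sets 6 and 5 had 11 calls with the block within genotype, against 0.

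Directions changed with centring, with or without the minimum fold, in set 5 for Il2ra (-0.13), Il2rb (-0.20) and Il2rg (-0.10), in set 6 for Il2ra (-0.15), Il2rb (-0.065) and Il21r (-0.064), and for the effect on Il2rg between sets 5 and 3 (-0.049). With quantile normalization these were -0.15, -0.19 and -0.11 in set 5, -0.18, -0.11 and -0.066 in set 6 and -0.11 for the effect. Quantile normalization also turned Il2rg in set 6 (-0.025) and its effect between sets 6 and 3 (-0.021), Il2ra in KO cells between sets 5 and 3 (-0.045) and Il4ra in set 3 (0.018). Among results not called, effects between sets 6 and 3 turned with centring to -0.23 for Il7r, -0.18 for Il21r and -0.33 for Il2. Leaving out 1 library in set 3 gave -1.57 to 0.16 for Il2, -0.23 to 0.16 for Il4ra, -0.029 to 0.54 for Il7r, -0.078 to 0.15 for Il15ra and -0.11 to 0.29 for Il21r, and for the effect on Il2ra -0.23 to 0.055 between sets 5 and 3 and -0.23 to 0.058 between sets 6 and 3.

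Counts over all genes moved beyond 1.5 times most often with a minimum fold of 1.2, a log2 difference of 1 or more, and the minimum fold with centring, which gave 492, 607 and 513 in set 3 (1427 called), 4743, 2234 and 3046 in set 5 (7299), 4419, 1845 and 1763 in set 6 (7336), 3787, 1988 and 1071 for the effect between sets 6 and 3 (6314), 75, 264 and 46 for KO sets 6 and 5 (1501) and 87, 171 and 64 for WT sets 6 and 5 (423). A log2 difference of 1 or more gave 4767 for KO sets 5 and 3 (9180) and 3785 for WT sets 5 and 3 (8479), and for the effect between sets 5 and 3 (6276) it gave 2466 and the minimum fold with centring 2270. Centring and quantile normalization gave 4669 and 4723 in set 6, 3022 and 3076 for the effect between sets 6 and 3, 943 and 931 for KO sets 6 and 5 and 258 and 226 for WT sets 6 and 5. The groups alone gave 379 in set 3, 519 for KO and 643 for WT sets 6 and 5, and the block within genotype gave 740 for the last. Leaving out KO replicate 1, KO replicate 3 or WT replicate 1 gave 666, 918 and 872 in set 3, and for sets 6 and 5 single libraries gave counts down to 589 in KO (without KO replicate 3 of set 5) and 113 in WT cells (without WT replicate 3 of set 6). Depth is unknown, and low values such as Il2 in sets 5 and 6 and Il9r rest on the authors' constant.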
